A study of Mus musculus with 9 samples.

Results

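The small proline-rich protein (Sprr) genes were followed here in the colon of mice with and without colitis. The 8 members, Sprr1a, Sprr2a1, Sprr2a2, Sprr2a3, Sprr2b, Sprr2d, Sprr2h and Sprr3, were taken by gene symbol from a count table of 27719 genes. All 8 of 8 had a line in the table, 7 held at least 1 count, and these 7 also passed the filter on low counts. Sprr2a1 was picked because it was the most counted gene of 2 libraries from treated mice, so its levels are a description and carry no test. Its near-copies Sprr2a2 and Sprr2a3 are described in the same way.

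The table held read counts per gene from Oxford Nanopore sequencing of full-length cDNA, made from total RNA of colon tissue of C57BL/6J mice, with 3 mice in each of 3 groups and 1 library per mouse. Colitis was induced with 2.5% dextran sodium sulfate (DSS), a detergent-like sugar polymer that injures the colonic epithelium, given in the drinking water for 7 days to both the DSS and the DSS + EA groups, while control mice drank distilled water. The DSS + EA mice also received electroacupuncture (EA), a mild current through needles at the leg point ST36 on both sides, with sessions of 30 minutes (2 Hz, 0.2 mA) once daily on 5 days that began after 5 days of modelling. Control and DSS mice were held for the same time without current, and no age was given for any group. A current without needling at ST36, or needling without current, was no part of the groups compared.

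Small proline-rich proteins are short proteins that transglutaminases cross-link into the cornified envelope, the tough layer under the membrane of squamous epithelial cells in skin, mouth and oesophagus. Their genes lie side by side in the epidermal differentiation complex, next to the S100 genes. Outside squamous tissue, Sprr2 genes are switched on in simple epithelia by injury, bacteria or cytokines, and the Sprr2a proteins of the gut have been described as bactericidal proteins that are released into the lumen.

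The 16 Sprr genes of the table lie within 284.7 kb of chromosome 3 (GRCm38, the mm10 assembly, with GENCODE M21 gene models), 12 of them on the + strand and 4 on the - strand. Sprr2a1 (chr3:92215799-92221911) comes first, followed by Sprr2a2 (chr3:92215920-92256724), Sprr2a3 (chr3:92285417-92291405), Sprr2b (chr3:92316620-92318085), Sprr2d (chr3:92339140-92340873) and Sprr2h (chr3:92385685-92387324). Sprr3 (chr3:92456502-92458720) and Sprr1a (chr3:92483952-92485895) lie at the far end on the - strand. Each of the 8 members has 2 exons in its longest transcript, and 1 of them holds all coding bases. The model of Sprr2a2 begins inside that of Sprr2a1, because 1 of its 2 transcripts starts there.

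The coding sequences are shown first because they show which members are near-copies. Those of Sprr2a1 and Sprr2a2 are identical over 249 bases, and that of Sprr2a3 differs from them at 3 bases, an identity of 98.8%. Reads of these copies may therefore have been divided among the 3 lines of the table in a way that cannot be checked from the counts. Sprr2b and Sprr2d are 74.5% and 69.3% identical to Sprr2a1 over their coding bases, and Sprr2h is 61.4% identical. Sprr2b is 74.4% identical to Sprr2d, so by coding bases it is no nearer to Sprr2d than to Sprr2a1. Capitals in the sequences of Sprr2a1, Sprr2b and Sprr2d mark each match to the repeated stretch CCNGANCCNTG, which Sprr2a1 holds 1 time, Sprr2b 3 times and Sprr2d 5 times. Sprr2k, which is not a member, holds it 1 time too. Capitals in Sprr2a3 mark instead the bases that differ from Sprr2a1. All 4 are spliced coding bases without the stop codon, on the + strand, at chr3:92219092-92219340, chr3:92288588-92288836, chr3:92317449-92317742 and chr3:92340254-92340508 in the order printed.
Sprr2a1: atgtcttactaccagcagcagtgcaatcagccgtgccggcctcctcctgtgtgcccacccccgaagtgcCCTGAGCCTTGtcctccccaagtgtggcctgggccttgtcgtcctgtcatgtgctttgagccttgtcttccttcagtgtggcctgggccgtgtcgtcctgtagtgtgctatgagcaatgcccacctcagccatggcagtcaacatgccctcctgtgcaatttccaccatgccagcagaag
Sprr2a3: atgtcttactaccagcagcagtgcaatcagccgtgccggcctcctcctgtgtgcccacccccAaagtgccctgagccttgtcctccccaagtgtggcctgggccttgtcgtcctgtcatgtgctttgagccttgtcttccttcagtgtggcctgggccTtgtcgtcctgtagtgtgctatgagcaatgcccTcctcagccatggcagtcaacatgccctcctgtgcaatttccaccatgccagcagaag
Sprr2b: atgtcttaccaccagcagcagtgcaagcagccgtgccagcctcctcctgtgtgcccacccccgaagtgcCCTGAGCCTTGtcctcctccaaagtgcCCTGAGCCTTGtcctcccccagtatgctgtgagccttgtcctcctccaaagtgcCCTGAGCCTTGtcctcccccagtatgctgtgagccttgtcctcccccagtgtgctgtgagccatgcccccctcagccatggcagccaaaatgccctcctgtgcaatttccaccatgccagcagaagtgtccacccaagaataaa
Sprr2d: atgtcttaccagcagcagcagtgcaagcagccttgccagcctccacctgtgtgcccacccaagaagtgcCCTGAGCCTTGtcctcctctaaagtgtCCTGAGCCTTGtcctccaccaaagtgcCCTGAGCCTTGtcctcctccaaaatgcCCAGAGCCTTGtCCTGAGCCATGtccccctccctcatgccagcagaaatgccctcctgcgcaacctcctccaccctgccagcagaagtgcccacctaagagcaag

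The 250 bases before each RefSeq start (GRCm38.p6) were searched on both strands for 8 motifs in the 14 Sprr genes that have such a window. The letters TGACTCA, the site of AP-1, were found in 8 of the 14 windows and in 4.46% of all 32851 windows of the genome. They stood in the windows of Sprr2b, Sprr2d, Sprr2h and Sprr1a, and in none of the Sprr2a genes. The octamer ATTTGCAT, which POU factors bind, was found in 7 Sprr windows, those of Sprr2b, Sprr2d, Sprr2h and 4 Sprr2 genes that are not members, against 1.6% of all windows. In those 7 windows it began 108 to 112 bases before the start, and TATAAA, found in 12.4% of all windows, began 29 bases before the start in each. The Sprr2a windows held the Stat6 type motif (5.85% of all windows) and the Ets type letters AGGAAG (29.5%). AGGAAG was found in 7 Sprr windows, those of Sprr2f, Sprr2k, Sprr3 and Sprr4 included, so it does not separate the Sprr2a genes from the others. The bases before 3 genes are printed to show the other matches in place, with the Stat6 type and Ets type matches in capitals in Sprr2a1 and the AP-1, octamer and TATAAA matches in capitals in Sprr2d and Sprr2h. That of Sprr2a1 is shortened to 214 bases, since GENCODE places the start 36 bases before RefSeq does. The first lies at chr3:92215585-92215798, the second at chr3:92338890-92339139 and the third at chr3:92385435-92385684, all on the + strand.
Sprr2a1 before the start: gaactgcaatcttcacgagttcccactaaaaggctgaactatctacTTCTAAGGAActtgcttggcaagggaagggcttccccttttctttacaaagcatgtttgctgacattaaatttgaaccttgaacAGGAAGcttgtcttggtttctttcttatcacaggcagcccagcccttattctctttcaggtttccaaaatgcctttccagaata
Sprr2d before the start: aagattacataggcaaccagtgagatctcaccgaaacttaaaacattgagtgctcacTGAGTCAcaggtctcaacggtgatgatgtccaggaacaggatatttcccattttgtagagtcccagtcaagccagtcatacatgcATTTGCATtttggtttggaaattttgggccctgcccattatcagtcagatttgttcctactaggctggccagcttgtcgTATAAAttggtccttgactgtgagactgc
Sprr2h before the start: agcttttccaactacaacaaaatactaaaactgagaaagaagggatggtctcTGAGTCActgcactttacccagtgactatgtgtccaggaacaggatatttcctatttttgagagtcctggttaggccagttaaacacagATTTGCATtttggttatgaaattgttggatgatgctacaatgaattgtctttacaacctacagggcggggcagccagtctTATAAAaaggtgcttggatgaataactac

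The windows are not aligned to each other, which limits this comparison. The longest run of bases shared by the Sprr2a1 and Sprr2b windows, 18 bases, begins 80 bases before the start of Sprr2b but at base 6 after the RefSeq start of Sprr2a1. A TATAAA begins at base 57 after that start, and it lies 29 bases before the start of the shorter Sprr2a2 transcript. In the 250 bases before this second start, neither TGACTCA nor ATTTGCAT was found, AGGAAG was found 1 time, and the Stat6 type motif fell outside. Of the 3 other motifs searched, the interferon response type motif (2.98% of all windows) were found in 0 Sprr windows, the Stat type letters TTCNNNGAA (7.02%) in 1, that of Sprr2a3, and the antioxidant response type letters TGANNNNGC (35.2%) in 8. A match is only a match of letters, and binding was not measured.

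**Figure D1:**
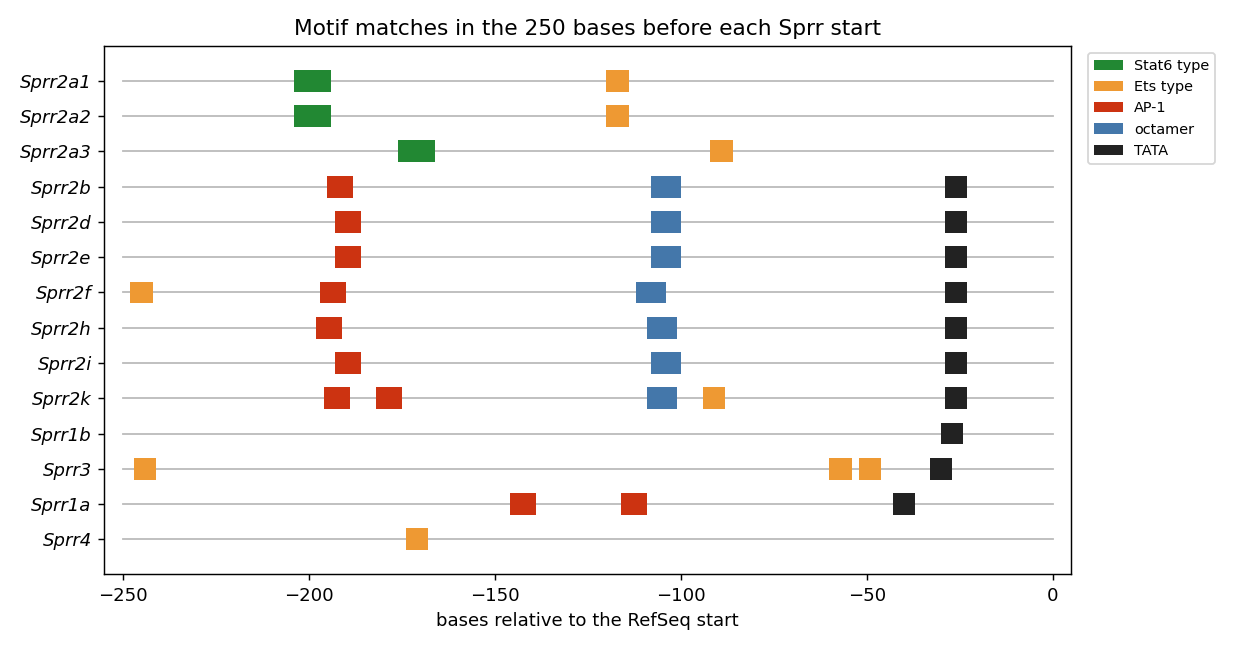
Matches to 5 motifs in the 250 bases before the RefSeq start of 14 Sprr genes, listed in chromosomal order; the x axis gives bases relative to the start and each coloured block is 1 match on either strand. AP-1, octamer and TATA blocks line up in 7 Sprr2 genes from Sprr2b to Sprr2k, the Stat6 type appears in the 3 Sprr2a genes, and Ets type blocks appear in these and 4 others.

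The 9 libraries held 2627695 to 4235576 counts. The colon epithelium markers summed to 16234 to 32977 CPM (counts per 1000000 counts of a library, its size being adjusted by TMM, the trimmed mean of M-values) in control mice, so the labelled tissue was present in them, and to 2839 to 13356 CPM in DSS and 12972 to 19885 CPM in DSS + EA mice. Neutrophil markers summed to 24.3 to 160.0 CPM in control, 4440 to 26575 CPM in DSS and 1198 to 1584 CPM in DSS + EA mice. The 12 pancreatic acinar markers, which a colon should lack, summed to 178 to 696 CPM in control, 1.55 to 11.8 CPM in DSS and 536 to 45797 CPM in DSS + EA mice, with the highest values in DSS + EA mice 2 and 3. The control sum was almost all Clps, the pancreatic colipase gene, at a mean of 375 CPM, and each of the other markers had 0 or 1 count per control library. Of 13 squamous markers, 9 had at most 3 counts in every library. Krt4 was at 0 in every library, Krt13 reached 10 counts, Krt14 reached 4 counts, Dsg3 reached 16 counts in DSS mouse 2, and Krt10 held 38 to 115 counts. The squamous markers summed to 16.9 to 20.8 CPM in control, 26.9 to 38.0 CPM in DSS and 16.3 to 18.1 CPM in DSS + EA mice. Most of this sum was Krt10, at means of 16.3, 25.6 and 15.0 CPM. Krt10 was not called in DSS against control (edgeR adjusted p = 0.0787) and was called lower in DSS + EA against DSS (0.0484). The sum was highest in DSS mouse 1, where Sprr2b and Sprr2d were lowest among the DSS mice. The part of the epithelial, squamous and neutrophil shifts in the results was not tested.

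Sprr2a1 was among the most abundant transcripts of the control colon. It had 74992, 87931 and 53576 counts in control mice 1 to 3, which is 2.00%, 2.72% and 2.04% of all counts and rank 2 in each library. In DSS mice it had 21222, 28716 and 8791 counts, or 0.665%, 0.678% and 0.272% of all counts, and ranked 5, 6 and 46. In DSS + EA mice it had 59691, 36244 and 72965 counts, or 1.83%, 1.28% and 2.22%, and ranked 2, 1 and 1. All 3 DSS libraries lay below all 6 others. The counts are large enough that counting error is small: the widest 95% Wilson interval, in control mouse 2, ran from 2.71% to 2.74%, although copies made by PCR are not independent molecules. The rule that picked Sprr2a1 turned on a narrow margin in DSS + EA mouse 2, where Lypd8, an antibacterial surface protein of colonocytes, followed with 35028 counts, and on a wide one in mouse 3, where Lypd8 had 47861. In DSS + EA mouse 1 the most counted gene was Reg3b, with 75698.

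Scaled to library size, Sprr2a1 stood at 22762 ± 5457 CPM (SD, n = 3) in control, 5228 ± 2190 CPM in DSS and 18138 ± 4769 CPM in DSS + EA mice. The DSS mean was 4.35-fold lower than the control mean, and the DSS + EA mean was 3.47-fold higher than the DSS mean. The fitted log2 difference between DSS and control was -2.12, and it stayed between -2.38 and -1.81 when any 1 mouse was left out. Between DSS + EA and DSS it was 1.79, with a range of 1.45 to 2.05. In bulk tissue, fewer epithelial cells and less RNA per cell cannot be told apart.

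The copies moved with it. Sprr2a3 had 3006, 4841 and 1585 counts in control, 1355, 1896 and 603 in DSS, and 3023, 1700 and 3986 in DSS + EA mice. Its mean CPM was 986 ± 535, 343 ± 136 and 932 ± 313 (SD, n = 3). The 3 DSS mice were again the lowest, and the control and DSS + EA mice overlapped. Sprr2a2 had 228, 180 and 99 counts in control, 26, 91 and 11 in DSS, and 84, 77 and 134 in DSS + EA mice. Its mean CPM was 51.5 ± 12.04, 10.4 ± 8.32 and 32.02 ± 8.93, a DSS mean 4.93-fold lower than control, with no DSS mouse reaching the lowest of the other 6. Its fitted log2 difference between DSS and control was -2.27, and it was -3.12 without DSS mouse 2, which held most of the DSS counts. Sprr2a1 took 93.5% to 97.0% of the counts of the 3 genes in every library, so their sum follows Sprr2a1. Summed to 1 line, the 3 genes gave 19723 to 30663 CPM in control, 2912 to 7214 CPM in DSS and 14085 to 24260 CPM in DSS + EA mice. In all genes tested, 25.9% had all 3 DSS mice below all 3 control mice, and 24.2% had all 3 DSS + EA mice above all 3 DSS mice, so a separation of this kind is common in these libraries.

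**Figure D2:**
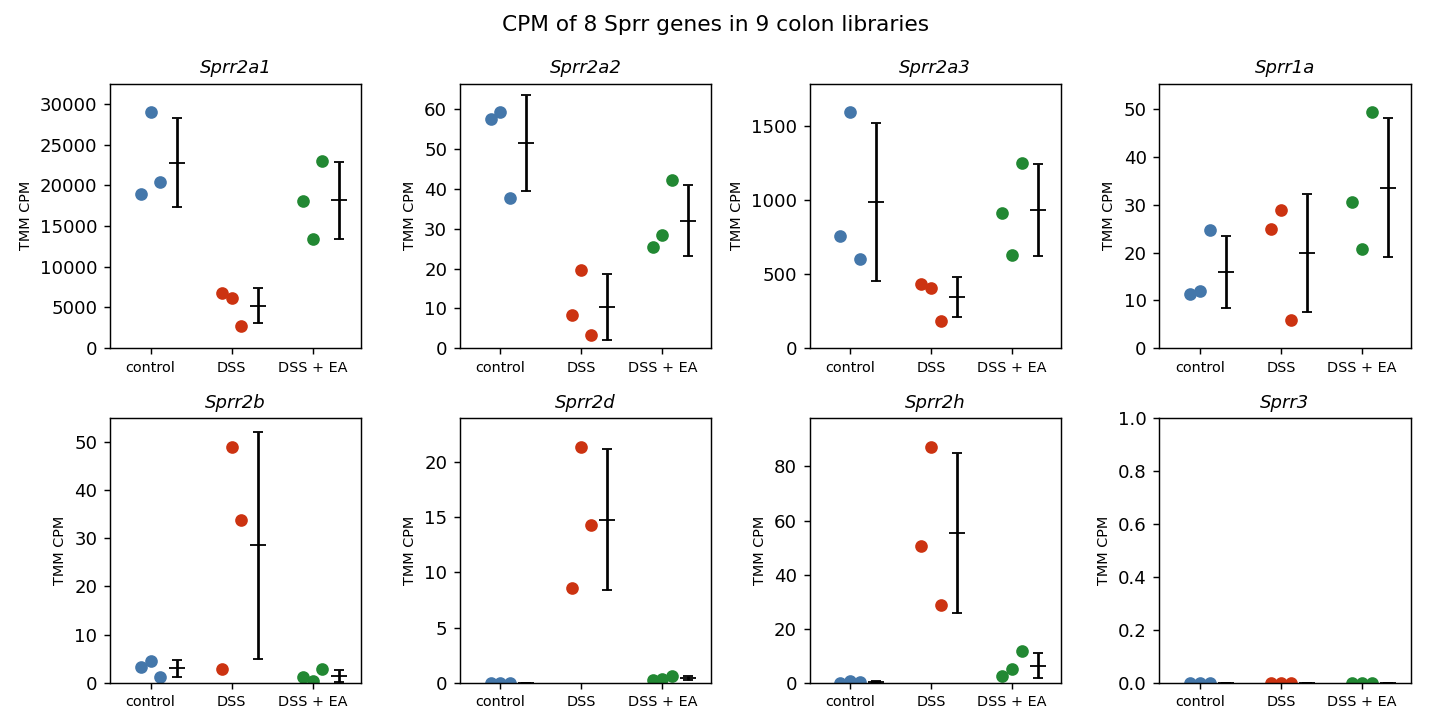
CPM of the 8 Sprr genes in each of 9 libraries, 1 panel per gene with its own linear axis from 0; points are mice, and the bar beside them is the mean ± SD of 3 mice. The Sprr2a genes are lowest in the DSS mice, Sprr2d and Sprr2h are highest there, 1 DSS mouse has Sprr2b at the control level, Sprr1a overlaps among the groups, and Sprr3 is at 0 throughout.

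Sprr2a1 was set against the keratins of simple epithelium, a ratio chosen after the values had been seen. Krt8, Krt18 and Krt19 together stood at 3224 to 3520 CPM in control, 2734, 1317 and 572 CPM in DSS mice 1 to 3 and 2413 to 2720 CPM in DSS + EA mice. The ratio of Sprr2a1 to these keratins was 6.88 ± 1.84 (SD, n = 3) in control, 3.98 ± 1.30 in DSS and 7.15 ± 1.47 in DSS + EA mice. DSS mouse 1 had the lowest ratio, 2.48, although its keratins were above those of all 3 DSS + EA mice and of the other DSS mice. The highest DSS ratio, 4.76, lay below the lowest of the other 6 mice, 5.55. The DSS mice were lowest in CPM and in this ratio, while the order of the other groups turned. The mean ratio was slightly higher in DSS + EA than in control mice, within their spread, where the mean CPM was lower. The separation of the DSS mice by ratio holds for these keratins only. Against the summed colon epithelium markers, control and DSS mice overlapped. DSS mouse 2 had 6190 CPM of Sprr2a1 and 4857 CPM of those markers, and control mouse 3 had 20371 and 32977 CPM.

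**Figure D3:**
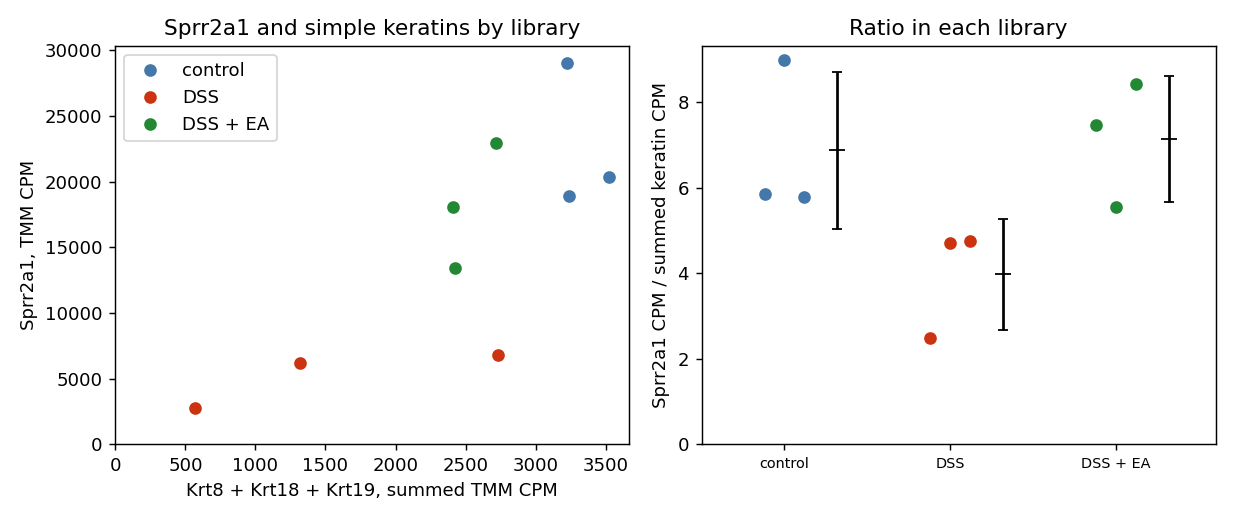
Left, Sprr2a1 CPM against the summed CPM of Krt8, Krt18 and Krt19 in each library; right, the ratio of the same values by mouse with the mean ± SD of 3 mice per group. The 3 DSS mice have ratios of 2.48 to 4.76, below the 5.55 to 8.997 of the other mice.

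Compared with the control group, Sprr2b, Sprr2d and Sprr2h were higher in the DSS group, which was the opposite direction to the Sprr2a genes. The edgeR quasi-likelihood test called these 3 of the 4 members tested (Sprr1a, Sprr2b, Sprr2d, Sprr2h) higher at a Benjamini-Hochberg adjusted p under 0.05, while 21.5% of all 12566 genes were called higher and 19.5% lower. The study's rule (log2 difference beyond 2.5 and P under 0.01) also called 3, against 6.62% of all genes higher and 3.57% lower. Sprr2d was over the filter on low counts in the 3 DSS mice alone, and Sprr2h in those and 2 DSS + EA mice, so both were tested because they were high in DSS, and the count of members supports nothing by itself. In this comparison their p-values are therefore given from the fit without this filter, in which every gene with a count was tested.

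Sprr2h had the highest mean of the 3 in DSS mice, although Sprr2b had more counts in DSS mouse 3, at 109. Sprr2h had 0, 2 and 1 counts in control mice and 158, 405 and 93 counts in DSS mice, with no overlap. Its DSS mean was 55.5 ± 29.6 CPM (SD, n = 3), at least 57.7-fold higher than 3 counts per control library (edgeR without the filter, adjusted p = 1.25e-05). Sprr2d had 0 counts in all 3 control mice and 27, 99 and 46 counts in DSS mice. At 14.7 ± 6.38 CPM it was at least 15.3-fold higher than 3 counts per control library (edgeR without the filter, adjusted p = 1.67e-05). A separation of all 3 DSS mice above all 3 control mice was seen in 26.1% of all genes tested. Both genes were at or near 0 in the control colon at this depth, and their bounds do not rank them. There, 3 counts correspond to 0.647 to 1.14 CPM.

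Sprr2b was more variable. It had 13, 14 and 3 counts in control mice and 9, 227 and 109 counts in DSS mice, so DSS mouse 1 lay within the control range. Its mean was 3.01 ± 1.75 CPM in control and 28.5 ± 23.5 CPM in DSS mice, a log2 difference of 3.21 (SE 0.87, edgeR adjusted p = 0.0153). The call was lost without control mouse 1 (edgeR adjusted p = 0.0529), control mouse 3 (0.0573) or DSS mouse 2 (0.0584). DSS mouse 1 also had the fewest neutrophil marker reads of the DSS group, 4440 CPM against 23081 and 26575, and the most epithelial ones.

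Compared with the DSS group, these genes were lower in the DSS + EA group. Sprr2h had 8, 14 and 37 counts in DSS + EA mice, a mean of 6.42 ± 4.74 CPM (SD, n = 3) and a log2 difference of -3.11 (SE 0.58) with the filter and -3.02 without it (edgeR adjusted p = 0.00361 and 0.00107). Sprr2d had 1, 1 and 2 counts, and its DSS mean was at least 14.9-fold higher than 3 counts per DSS + EA library (edgeR without the filter, adjusted p = 0.000126). Sprr2b had 4, 1 and 9 counts and a mean of 1.47 ± 1.25 CPM. Its log2 difference was -4.22 (SE 0.96) with the filter and -4.13 without it (edgeR adjusted p = 0.00881 and 0.0029). The filter had admitted Sprr2d through the DSS mice alone, and Sprr2b through 2 DSS and 2 control mice. Their place among the members called in this comparison therefore supports nothing either. All DSS + EA mice were below all DSS mice for these 3 genes, although for Sprr2b the highest DSS + EA mouse, at 2.83 CPM, was close to DSS mouse 1 at 2.87 CPM. Among all genes tested, 18.3% were called lower and 17.2% higher in this comparison, and 23.3% had all DSS + EA mice below all DSS mice. The study's rule called 3 members too, with 2.91% of all genes higher and 3.5% lower. With the 12 acinar markers left out of the table before the fit, an alternative chosen after the data had been seen, 3 members were called as before, and the log2 difference of Sprr2h was -3.15 (edgeR adjusted p = 0.00342). Both comparisons use the same DSS libraries, so their opposite signs are not independent of each other.

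The DSS + EA group was also set directly against control. Sprr2h was the 1 member of the 4 tested that was called (edgeR, adjusted p = 0.0451). It was at least 6.67-fold higher than 3 counts per control library, with 2.42 to 11.6 CPM in DSS + EA mice above 0 to 0.66 CPM in control mice. The filter had admitted Sprr2h through the DSS mice, a group not compared here, and 2 DSS + EA mice. In a fit of only these 2 groups it was not tested, so this call and the count of members support nothing by themselves. Among all genes, 3% were called higher and 0.637% lower, and 18% had all DSS + EA mice above all control mice. By the study's rule 1 member was called, against 1.74% of all genes higher and 0.334% lower. The call of Sprr2h was lost when any 1 control mouse was left out (edgeR adjusted p of 0.198, 0.109 and 0.117 without mice 1 to 3) and without DSS + EA mouse 2 (0.0776) or 3 (0.17). Sprr2d was at or under 3 counts in all 6 of these libraries and allows no fold. Sprr2b overlapped between them, with a log2 difference of -1.01 (SE 1.11, edgeR adjusted p = 0.698). The Sprr2a genes also overlapped, and the fitted log2 difference of Sprr2a1 was -0.33.

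Sprr1a, which in other tissues is induced by injury, did not pass the test in any of the 3 comparisons. It had 45, 36 and 65 counts in control, 78, 134 and 19 in DSS and 101, 56 and 157 in DSS + EA mice. The means were 15.98 ± 7.57, 19.9 ± 12.3 and 33.6 ± 14.6 CPM (SD, n = 3), and the groups overlapped. The log2 difference was 0.34 (SE 0.55, edgeR adjusted p = 0.651) between DSS and control, 0.75 (SE 0.54, adjusted p = 0.298) between DSS + EA and DSS, and 1.09 (SE 0.55, adjusted p = 0.357) between DSS + EA and control. These p-values do not show that the levels were the same. Without DSS mouse 2 the log2 difference between DSS and control was -0.03. Set against Krt8, Krt18 and Krt19 as Sprr2a1 was, the groups did not all overlap. The ratio of Sprr1a to these keratins was 0.0035 to 0.0070 in control, 0.0091 to 0.0219 in DSS and 0.0086 to 0.0182 in DSS + EA mice. This ratio, too, was chosen after the values had been seen and was not tested. Sprr3, which belongs to mouth and oesophagus, had 0 counts in all 9 libraries, which allows a level of up to 0.647 to 1.14 CPM per library.

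The Sprr genes outside the 8 members lie in the same cluster, and those with counts are all between Sprr2d and Sprr1b. Of 9 listed, 8 were in the table. Sprr1b, Sprr4 and Sprr2j-ps were at 0 in every library. Sprr2f had 0 counts in every control mouse, 12, 62 and 27 in DSS and 1, 0 and 0 in DSS + EA mice, at least 8.85-fold higher in DSS than 3 counts per control library and at least 8.63-fold higher than 3 counts per DSS + EA library. It was over the filter on low counts in the DSS mice alone, so no test of it is given. Sprr2e, Sprr2g, Sprr2i and Sprr2k were too low to be tested, with 0 counts in every control mouse and highest counts of 17, 30, 45 and 10 in DSS mice, each in DSS mouse 2. In DSS + EA mice none of these 4 exceeded 3 counts. The 9 genes from Sprr2b to Sprr2k together had 13, 16 and 4 counts in control, 236, 895 and 304 in DSS and 18, 17 and 52 in DSS + EA mice. They made up 0.0137% ± 0.00559 (SD, n = 3) of all Sprr counts in control, 2.33% ± 1.13 in DSS and 0.0468% ± 0.0194 in DSS + EA mice, so that the Sprr2a genes remained the bulk of Sprr transcripts in every group.

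**Figure D4:**
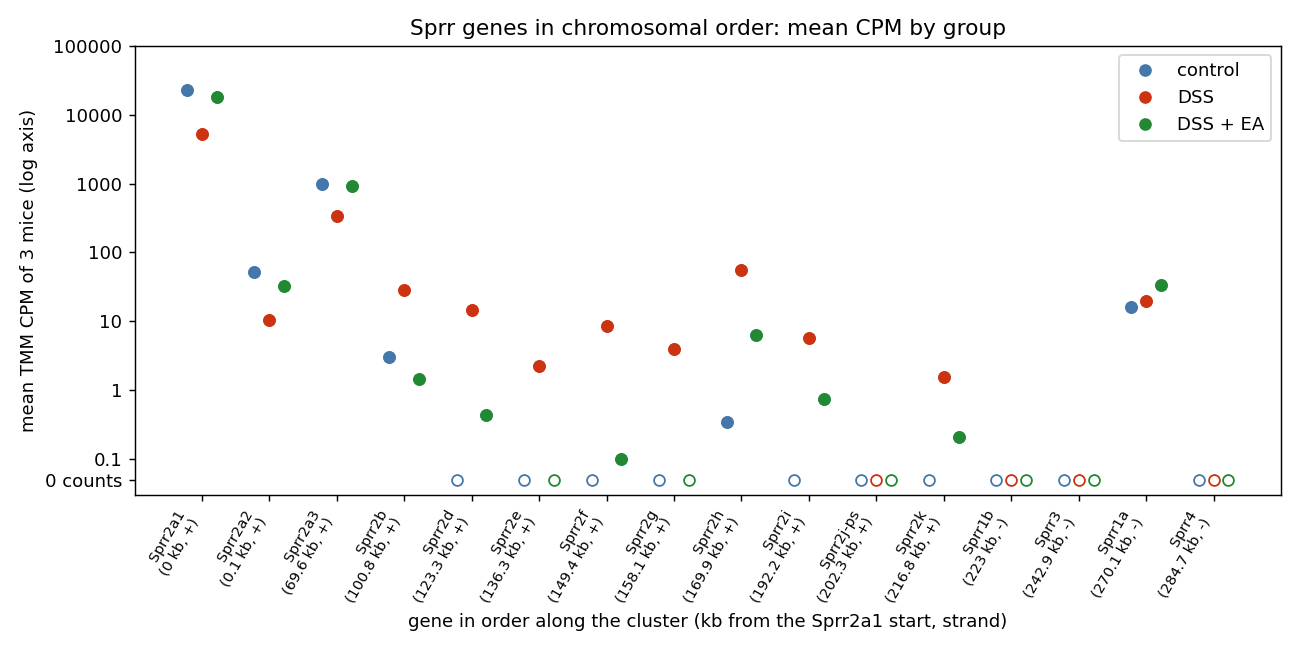
Mean CPM of 3 mice per group (log axis) for the 16 Sprr genes of the table in chromosomal order, with distance from the Sprr2a1 start in kb and the strand under each name; open circles mark genes with 0 counts in a group. In the 3 Sprr2a genes the DSS mean is lowest, and from Sprr2b to Sprr2k the DSS mean is highest wherever a gene has counts.

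**Figure D5:**
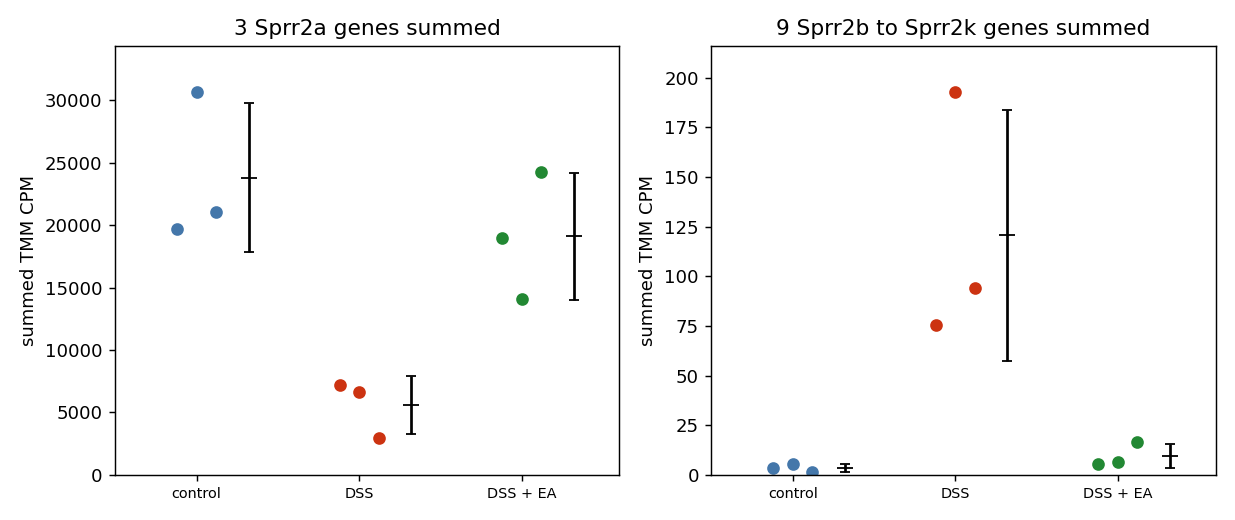
Summed CPM by mouse, with the mean ± SD of 3 mice per group, of the 3 Sprr2a genes (left) and of the 9 genes from Sprr2b to Sprr2k (right), on linear axes of different height. The sums move in opposite directions in DSS mice, 2912 to 7214 CPM on the left and 75.3 to 192.9 CPM on the right.

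Levels of different genes were compared per length, although full-length reads do not require this division. Per kb of the longest transcript, Sprr2a1 stood at 7580 ± 1817 CPM per kb (SD, n = 3) in control mice, Sprr2a3 at 342 ± 186, Sprr1a at 19.8 ± 9.39, Sprr2a2 at 17.96 ± 4.20, Sprr2b at 3.84 ± 2.24 and Sprr2h at 0.461 ± 0.440. Sprr1a and Sprr2a2 did not differ beyond their spread. In DSS mice the order was Sprr2a1 at 1741 ± 729, Sprr2a3 at 119 ± 47.1, Sprr2h at 73.8 ± 39.3, Sprr2b at 36.4 ± 29.9, Sprr1a at 24.7 ± 15.3, Sprr2d at 21.6 ± 9.36 and Sprr2a2 at 3.64 ± 2.90. There, Sprr2b, Sprr1a and Sprr2d lay within 1 SD of each other, and Sprr2h had moved from near 0 to the third place. The spreads of Sprr2h and Sprr2a3 per kb overlapped as well. In CPM, Sprr2a3 was higher than Sprr2h in each DSS mouse, at 187 to 432 against 28.8 to 87.3. In DSS + EA mice Sprr2a1 stood at 6040 ± 1588, Sprr2a3 at 324 ± 109, Sprr1a at 41.6 ± 18.1, Sprr2a2 at 11.2 ± 3.12, Sprr2h at 8.53 ± 6.30, Sprr2b at 1.88 ± 1.60 and Sprr2d at 0.637 ± 0.254, with Sprr2a2 and Sprr2h within 1 SD of each other. Because full-length reads count a molecule once whatever its length, the order without this division is given as well: in control mice it differs in that Sprr2a2, at 51.5 CPM, stood above Sprr1a, at 15.98 CPM.

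How alike the patterns were was measured as the root mean square difference of centred log2 CPM over the 9 libraries, which share their depth and batch. By this measure Sprr2a1 differed from Sprr2a3 by 0.37 and from Sprr2a2 by 0.43, and Sprr2d differed from Sprr2f by 0.43. Sprr2a1 differed from Sprr2h by 3.34 and from Sprr1a by 1.06, where its own spread was 1.06 and the median over all genes tested was 1.14. The 10 genes outside the family that are listed here were closest to Sprr2a1, and 7 of them have gene names. Ceacam10, an adhesion molecule of the carcinoembryonic antigen family, came first at 0.19, with 170 ± 38.7 CPM in control, 33.8 ± 9.45 in DSS and 118 ± 21.3 in DSS + EA mice. Rab27b, a GTPase of secretory vesicles, followed at 0.24, and Ceacam20, a microvillus membrane protein, at 0.26. The others were St6gal1, a sialyltransferase (0.27), Mrps6, a mitochondrial ribosomal protein (0.29), Mlph and Sytl2, which bind Rab27 proteins (0.29 and 0.30), and 3 loci without a protein name. These are descriptions over shared libraries, with no test.

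Genes of related roles were summarised from fixed lists, with the median log2 difference of each beside that of all genes tested, 0.02 for DSS against control and -0.02 for DSS + EA against DSS. Of all genes tested, 21.5% were called higher and 19.5% lower in DSS against control. In DSS + EA against DSS these shares were 17.2% and 18.3%. Counts near these shares are not a result about a list. Of 13 surface colonocyte genes, 0 were called higher and 8 lower in DSS (median -1.86), and 10 were higher and 0 lower in DSS + EA against DSS (median 1.92). Examples are the water channel Aqp8, with a log2 difference of -3.28 (SE 0.94, edgeR adjusted p = 0.0191), and the guanylin gene Guca2a, with -3.12 (SE 0.82, adjusted p = 0.0133). The Sprr2a genes moved in the direction of this list and Sprr2b, Sprr2d and Sprr2h against it. Of 13 colon epithelium markers, 0 were higher and 7 lower in DSS (median -1.24), led by the goblet cell mucin Muc2 and the carbonic anhydrase Car1, and 4 were higher and 0 lower in DSS + EA against DSS.

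The partners of Sprr proteins in the cornified envelope were mostly not measurable in the colon. Of 24 listed, 23 were in the table, 6 had no count in any library, and only 3 could be tested. Csta1, a cysteine protease inhibitor of the envelope, rose in DSS from 5.96 ± 4.52 to 21.3 ± 8.06 CPM (log2 difference 1.82, SE 0.51, edgeR adjusted p = 0.0182). Tgm3, a transglutaminase that cross-links Sprr proteins, fell from 82.1 ± 63.1 to 6.42 ± 4.34 CPM (-3.68, SE 0.78, adjusted p = 0.00466) and was higher in DSS + EA than in DSS (2.29, SE 0.76, adjusted p = 0.0399). Dsp, the desmosomal plaque protein, was not called. Of the S100 neighbours, 10 of 13 were tested, and 4 were higher and 1 lower in DSS (median 0.29), then 0 higher and 5 lower in DSS + EA against DSS. They were led by S100a8 and S100a9, the calprotectin subunits of neutrophils, which are also on the neutrophil list. Of 10 neutrophil markers, 9 were tested. Of these, 9 were higher in DSS and 7 lower in DSS + EA against DSS, beside 21.5% and 18.3% of all genes. S100a8, S100a9, Cxcr2, Mmp8, Mmp9, Clec4d and Trem1 had at most 6 counts in any control mouse. They passed the filter on low counts only through DSS and DSS + EA mice, so the count of markers called supports nothing by itself.

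Epithelial stress and wound genes were called higher in 8 and lower in 1 of 16 tested in DSS (median 1.28). In DSS + EA against DSS, 2 were higher and 3 lower, near the shares of all genes, 17.2% and 18.3%. Both the growth factor Ereg and Msln, a surface glycoprotein, had at most 3 counts in every control library. In DSS they were at least 26.0-fold and 12.4-fold higher than 3 counts per control library. Both passed the filter on low counts only through DSS and DSS + EA mice, so no test of them is given. Their place among the 8 called higher supports nothing by itself. The epithelial 14-3-3 protein gene Sfn fell by 1.24 (SE 0.34, edgeR adjusted p = 0.016). Of 17 epithelial antimicrobial genes, 6 were higher and 5 lower in DSS (median 0.55). In DSS + EA against DSS, 2 were higher and 3 lower, also near the shares of all genes. Lcn2, which binds bacterial siderophores, rose by 8.92 (SE 0.89, adjusted p = 0.000109) and Saa3, an acute-phase protein, by 11.04 (SE 0.87, adjusted p = 3.33e-05), while Ang4 fell by 7.55 (SE 1.47, adjusted p = 0.00312) and Itln1 fell by 7.07 (SE 1.02, adjusted p = 0.000661). Of 10 Nrf2 targets, 4 were higher and 1 lower in DSS (median 0.88), led by the haem-degrading enzyme Hmox1, then 0 higher and 3 lower in DSS + EA against DSS. Of 18 type 2 genes (cytokines, their receptors and genes linked to them), 10 were tested, and 4 were higher and 3 lower in DSS (median 0.17). In DSS + EA against DSS, 2 were higher and 4 lower. The cytokine genes Il4, Il5, Il13 and Il25 had at most 4 counts in any library and were not tested. Stat6, the signal transducer of interleukins 4 and 13, had a log2 difference of -0.12 (SE 0.23, adjusted p = 0.69) in DSS.

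Regulators known from Sprr promoters or barrier genes were tested in 17 of 23 cases. In DSS 8 were higher and 4 lower (median 0.01), then 3 higher and 8 lower in DSS + EA against DSS (median -0.92). In DSS + EA against control 0 were called in either direction, where only 3% of all genes were called higher and 0.637% lower. This 0 does not show that their levels were the same as in control mice. Of the AP-1 subunits, Junb and Fosl2 rose in DSS by 1.77 and 0.90 on the log2 scale (edgeR adjusted p = 0.0112 and 0.0263), while Fos, Jun and Jund were not called. Pou2f1, a POU factor that binds the octamer, rose by 0.82 (adjusted p = 0.0373). Pou2f3, another listed POU factor, had 2, 1 and 1 counts in control mice and 0 in each DSS mouse, too few to be tested. Stat3, which acts downstream of inflammatory cytokines, rose by 1.94 (SE 0.25, adjusted p = 0.000421). Cebpb, which also acts there, had 6, 2 and 2 counts in control and 25, 149 and 31 in DSS mice. It was over the filter on low counts in the DSS mice alone. No test of it is therefore given, and its place among the 8 called higher supports nothing by itself. Among Ets factors, Ets1 and Ets2 rose by 1.52 and 1.08 (adjusted p = 0.0216 and 0.0264). The epithelial Ets factors Elf3 and Ehf and the grainyhead factor Grhl2 fell by 1.26, 0.97 and 1.36 (adjusted p = 0.0302, 0.0143 and 0.0473). Elf3 stood at 259 ± 18.7 CPM (SD, n = 3) in control, 108 ± 69.9 in DSS and 413 ± 19.5 in DSS + EA mice. The RNA level of a factor is not its activity, and no link between these genes and the Sprr genes was tested. Of 6 smooth muscle markers, 0 were higher and 5 lower in DSS, then 1 higher and 0 lower in DSS + EA against DSS.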

How the data were processed

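Colon RNA of 9 mice, grouped by the labels (3 mice per group), was sequenced on the Oxford Nanopore platform, 1 library per mouse. The authors deposited raw read counts per gene (genome build mm10 in the submitters' processing notes). The aligner, counting tool, annotation and strand setting were not given in the sources used here.

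Of the table, 14 lines that held no counts were skipped and 27719 genes were used. Libraries held 2627695 to 4235576 counts, and intervals and floors (3 counts) cover counting error only. One fit over all 9 libraries was made with edgeR 4.0.16 in R 4.3.3 (TMM, filterByExpr by group, quasi-likelihood test, group as the only term, prior count 0.125), which kept 12566 genes. A gene was called at a Benjamini-Hochberg adjusted p under 0.05 over these genes, and the study's rule (log2 difference beyond 2.5, P under 0.01) was an alternative, as was DESeq2 1.42.0, the tool of the study. With 3 mice against 3 an exact permutation test cannot go below p = 0.1, so none was used. Folds against groups with at most 3 counts in every library are lower bounds against 3 counts per library.

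Members, lists, motifs and tests were chosen with earlier results of these data known. All members and all other Sprr genes were named, as were, of each list, the 2 genes called in each direction in DSS against control with the largest log2 difference where the text had use for them, list genes whose role a sentence needed, and the 10 genes most like Sprr2a1. Sequences came from RefSeq promoter windows (GRCm38.p6) and GENCODE M21 transcripts, and identities from global alignment in Biopython 1.88.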

Additional observations from a re-analysis of the deposited data

How the results depend on the processing

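In the DSS + EA against control comparison the results depended most on the settings. The edgeR fit of all groups called 457 genes there, against 697 with DESeq2 and 1147 in a fit of only the 2 groups compared, and leaving out 1 mouse at a time gave 107 to 772 genes. The call of 1 member, Sprr2h, became 0 members with library totals in place of TMM (adjusted p = 0.0562), with a filter at a mean of 20 counts (0.0567), and with the replicate number as a block (0.0676), and 0 to 1 members when a mouse was left out. In the fit of only the 2 groups compared, 0 members were called and Sprr2h did not pass the filter. It kept its call with the acinar markers left out, an alternative chosen after seeing the data (0.0481). Sprr1a reversed in DSS against control without DSS mouse 2, to -0.027, and ranged up to 0.78 over the other mice left out. The number of members called in DSS against control and in DSS + EA against DSS was 3, and 2 to 3 over all alternatives. It was 2 with the filter at a mean of 20 counts, where Sprr2d was not tested, in the first comparison also without control mouse 1, control mouse 3 or DSS mouse 2, where Sprr2b lost its call, and in the second comparison also in the fit of only the 2 groups compared, where Sprr2b was not tested. Of all values for single members under the alternatives, 372 kept their direction and side of the threshold or moved by less than 1 SD, 11 lost the call (Sprr2h in DSS + EA against control and Sprr2b in DSS against control, as named), 1 reversed (Sprr1a), and 2 moved by more than 1 SD, both of Sprr2a2 without DSS mouse 2. The replicate numbers did not pair the mice: over 9 pairs the correlation of deviations from group means was -0.16 to 0.11. The replicate block changed no call but that of Sprr2h named above, and members called stayed at 3 in the other 2 comparisons. The depth limits Sprr3, Sprr2d and Sprr2h in control mice, where fewer than 3 counts cannot be told from 0. The cause of these changes was not tested.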
